A study of Mus musculus with 4 samples.

Results

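The genes described here are the Wnt ligands with their receptors, secreted modulators and core intracellular transducers, in the cochlea of mice with a mutation in Ikzf2. Ikzf2 encodes helios, a zinc finger transcription factor of outer hair cells, which are sensory cells whose length changes boost the vibration caused by sound. Members were every gene whose symbol begins with Wnt, Fzd, Sfrp, Dkk or Rspo followed by a digit, apart from Fzd3 and Fzd6, together with Frzb, Wif1, Lrp5, Lrp6, Axin1, Axin2, Lef1, Tcf7, Tcf7l1, Tcf7l2, Rnf43, Znrf3 and Ctnnb1. The rule found 53 of the 37239 counted genes. Among them Rspo4os, a noncoding RNA antisense to Rspo4, met the rule by its name alone. RNA of whole cochleae at postnatal day 8 was sequenced from wild-type mice (Ikzf2+/+) and from littermates homozygous for the cello allele (Ikzf2cello/cello), each genotype being represented by 2 libraries. The design text speaks of biological duplicates, and no further allele or agent is named. How many animals went into a library is not stated. The p-values set the difference between genotypes against the spread between libraries within a genotype, which need not be that between animals.

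Wnt proteins are secreted, lipid-modified ligands that bind frizzled receptors. In the canonical branch a frizzled acts with the co-receptor Lrp5 or Lrp6, the Axin complex that degrades beta-catenin is disabled, and beta-catenin joins Tcf and Lef factors on target genes, several of which encode brakes on the pathway. In the cochlea, Wnt signalling is known for its roles in the proliferation of the prosensory epithelium, in hair cell formation and in the orientation of hair bundles.

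The values are CPM, read counts scaled to a common total of counted alignments, as the authors deposited them. The 4 libraries held 42152616 to 49719984 counted alignments, of which 70.0% to 72.8% lay in genes, and 1 read was worth 0.0201 to 0.0237 CPM. Ikzf2 itself stood at 22.9 and 18.5 CPM in the wild-type libraries, with 17.7 and 16.9 CPM in those of cello, which does not check the labels, since cello alters the protein. Marker genes listed for each cell type showed that the libraries differed in make-up. The 5 outer hair cell markers summed to 192.2 and 191.6 CPM in wild-type but to 70.62 and 54.15 CPM in cello, and all 5 had both cello libraries below both wild-type libraries, as did 3 of 5 general hair cell markers. The summed level of 7 supporting cell markers was 2462 and 2596 CPM in wild-type and 2014 and 2118 CPM in cello, with 5 of the 7 lower in both cello libraries than in both wild-type libraries. The sum of 6 stria vascularis markers was 2268 and 2426 CPM against 1705 and 1820 CPM, with all 6 lower in this sense. The sum of 6 Schwann cell markers was 1003 and 2440 CPM in wild-type and 3528 and 4362 CPM in cello, with 5 of the 6 higher in both cello libraries and Sox10 lower. The sum of 8 bone markers was 1006 and 1039 CPM in wild-type, and for cello it was 2445 CPM in replicate 1 and 562.5 CPM in replicate 2. No marker of the cell types named in this paragraph was at 0 in any library, and the part of these cell types in the values of the Wnt genes was not tested. In RNA of a whole organ, fewer cells of a type and less RNA per cell cannot be told apart.

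The promoters of Axin2, Fzd7, Frzb and Fzd10 are shown as windows of 300 bases that span the RefSeq start (GRCm38.p6). All 4 genes were lower in both cello libraries than in both wild-type libraries, but so were other members with a window, 10 in all. These 4 were chosen after their values were seen, and they include every one of the 10 that held the motif described next. The gene models used here for positions (GENCODE M21) start Fzd10 at 128600844, just before its window, and Fzd7 at 59482424, beyond the end of its window. Capitals mark CTTTG or its reverse complement CAAAG, the core of the sequence bound by Tcf and Lef factors, searched on both strands.
Axin2, chr11:108920099-108920398, plus strand: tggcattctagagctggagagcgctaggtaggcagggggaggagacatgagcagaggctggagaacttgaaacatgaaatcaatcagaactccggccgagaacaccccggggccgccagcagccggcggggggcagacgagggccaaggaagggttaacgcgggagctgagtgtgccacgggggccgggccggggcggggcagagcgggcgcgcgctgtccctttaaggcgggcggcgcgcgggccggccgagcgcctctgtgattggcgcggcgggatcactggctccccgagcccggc
Frzb, chr2:80447347-80447646, minus strand: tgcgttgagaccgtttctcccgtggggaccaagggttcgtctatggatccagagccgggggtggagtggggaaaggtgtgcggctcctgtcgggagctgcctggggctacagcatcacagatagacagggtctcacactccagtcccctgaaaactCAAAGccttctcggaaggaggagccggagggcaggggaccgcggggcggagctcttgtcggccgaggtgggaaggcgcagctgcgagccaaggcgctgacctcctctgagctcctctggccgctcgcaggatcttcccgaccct
Fzd7, chr1:59481897-59482196, plus strand: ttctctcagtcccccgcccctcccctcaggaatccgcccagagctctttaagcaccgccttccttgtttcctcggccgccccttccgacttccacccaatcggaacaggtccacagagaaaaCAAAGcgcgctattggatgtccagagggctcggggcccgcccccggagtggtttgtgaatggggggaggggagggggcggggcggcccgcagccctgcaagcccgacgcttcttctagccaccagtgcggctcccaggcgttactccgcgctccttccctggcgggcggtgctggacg
Fzd10, chr5:128600856-128601155, plus strand: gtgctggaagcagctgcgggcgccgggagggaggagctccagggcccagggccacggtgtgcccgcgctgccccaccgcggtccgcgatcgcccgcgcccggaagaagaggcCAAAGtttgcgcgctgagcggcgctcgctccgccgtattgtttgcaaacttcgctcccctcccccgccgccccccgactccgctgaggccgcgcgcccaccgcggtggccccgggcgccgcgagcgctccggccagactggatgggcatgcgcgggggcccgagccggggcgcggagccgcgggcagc
The core was found 1 time in each of the Frzb, Fzd7 and Fzd10 windows and 0 times in that of Axin2. Those 3 were the only ones that held it among the 10 members with a window whose cello libraries both lay below both wild-type libraries. Promoter windows were matched for 36 of the 53 members, and 17 of these 36 (47.2%) held the core in at least 1 window, against 57.4% of all 27025 genes with a window. The longer form CTTTGAT, which contains the core, was found in 2 of the 36 members, Wnt5b and Wnt11 (5.56%), against 4.29% of all genes. A second longer form, CTTTGAA, was found in 1 of the 36, Dkk1 (2.78%), against 5.93% of all genes, and neither form in any of the 10. A match is a description of these letters and not a bound site.

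No Wnt gene passed the test between genotypes. Of the tested members, 31 (73.8%) had a log2 fold change below 0, beside 56.6% of all genes tested, and 11 had one above 0. Of the 53 members, 42 reached 1 CPM in at least 2 libraries and were tested. In 19 of the 42 (45.2%) both cello libraries lay below both wild-type libraries, beside 28.7% of all 14721 genes tested. In 3 (7.14%) both lay above, beside 16.9%. With the libraries rescaled by TMM, a normalization that centres most genes, these counts were 15 and 4 of the 42, beside 22.1% and 22.4% of all genes. The 15 were all among the 19, without Axin1, Fzd2, Lrp5 and Sfrp1, and Lrp6 joined the higher side. The median log2 fold change of the tested members was -0.17, beside -0.03 over all genes tested. No member passed an adjusted p of 0.05, nor did any of the 14721 genes (0%), by limma with Benjamini-Hochberg adjustment, whose smallest adjusted p among the members was 0.419. At an unadjusted p under 0.05, limma listed 11 of the 42 members (26.2%), beside 10.9% of all genes. Of these 11 members, 8 were lower and 3 higher, while 6.47% of all genes tested were lower at this p and 4.42% higher. With 3 libraries, this count was 2 when wild-type replicate 2 was left out, and 18 when cello replicate 2 was, where all genes gave 1045 and 2546 of 14721. Neither edgeR (smallest adjusted p 0.451) nor DESeq2 (0.153) called a member on the recovered reads, while DESeq2 called 1.32% of all genes. At an unadjusted p under 0.05, edgeR listed 10 members and DESeq2 9, where all genes gave 1463 and 1368 of 14721.

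**Figure D1:**
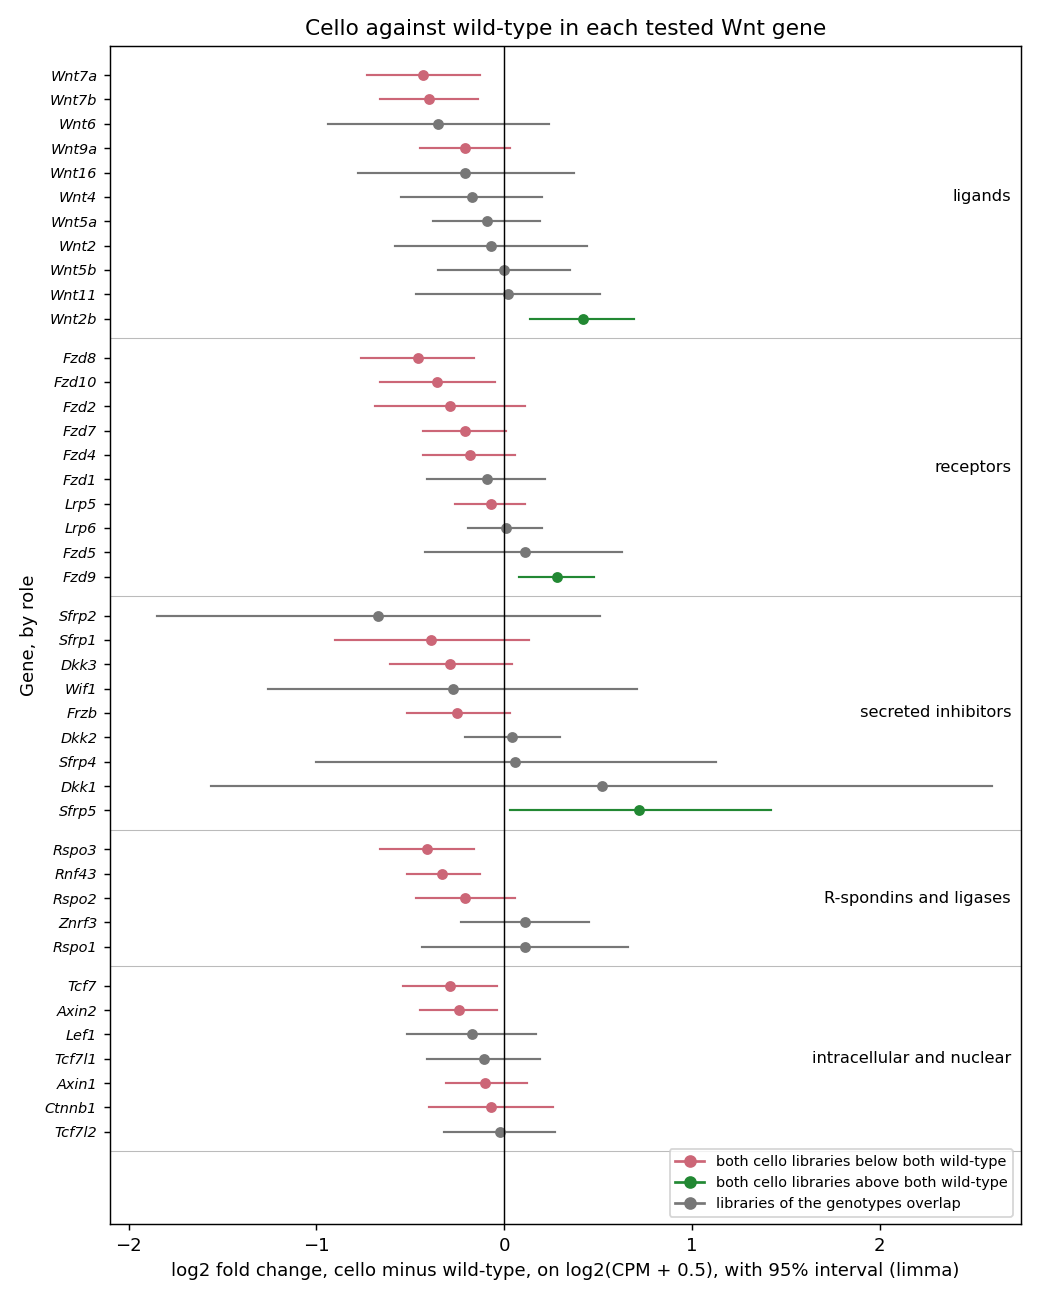
Log2 fold change of each tested member, cello minus wild-type on the log2(CPM + 0.5) scale, with the 95% interval from limma (2 libraries per genotype), by role. Red marks the 19 genes whose cello libraries both lie below both wild-type libraries, green the 3 whose cello libraries both lie above, and grey the 20 whose libraries overlap.

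The levels of the members spanned a wide range. Per kb of merged exons, which allows genes of different length to be set side by side, Ctnnb1, which encodes beta-catenin, had the highest mean level over the 4 libraries, at 212.2 CPM per kb. Wnt5a followed at 51.9 CPM per kb. Next came Frzb (40.7), Sfrp1 (40.1), Fzd9 (37.4) and Dkk3 (36.6 CPM per kb), whose ranges over the libraries overlapped, so that their order is not resolved. The lowest tested members were Wnt16 (0.837), Wnt2 (0.717) and Wnt11 (0.519 CPM per kb). Merged exons include those of rare isoforms, so these levels understate genes with many of them.

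**Figure D2:**
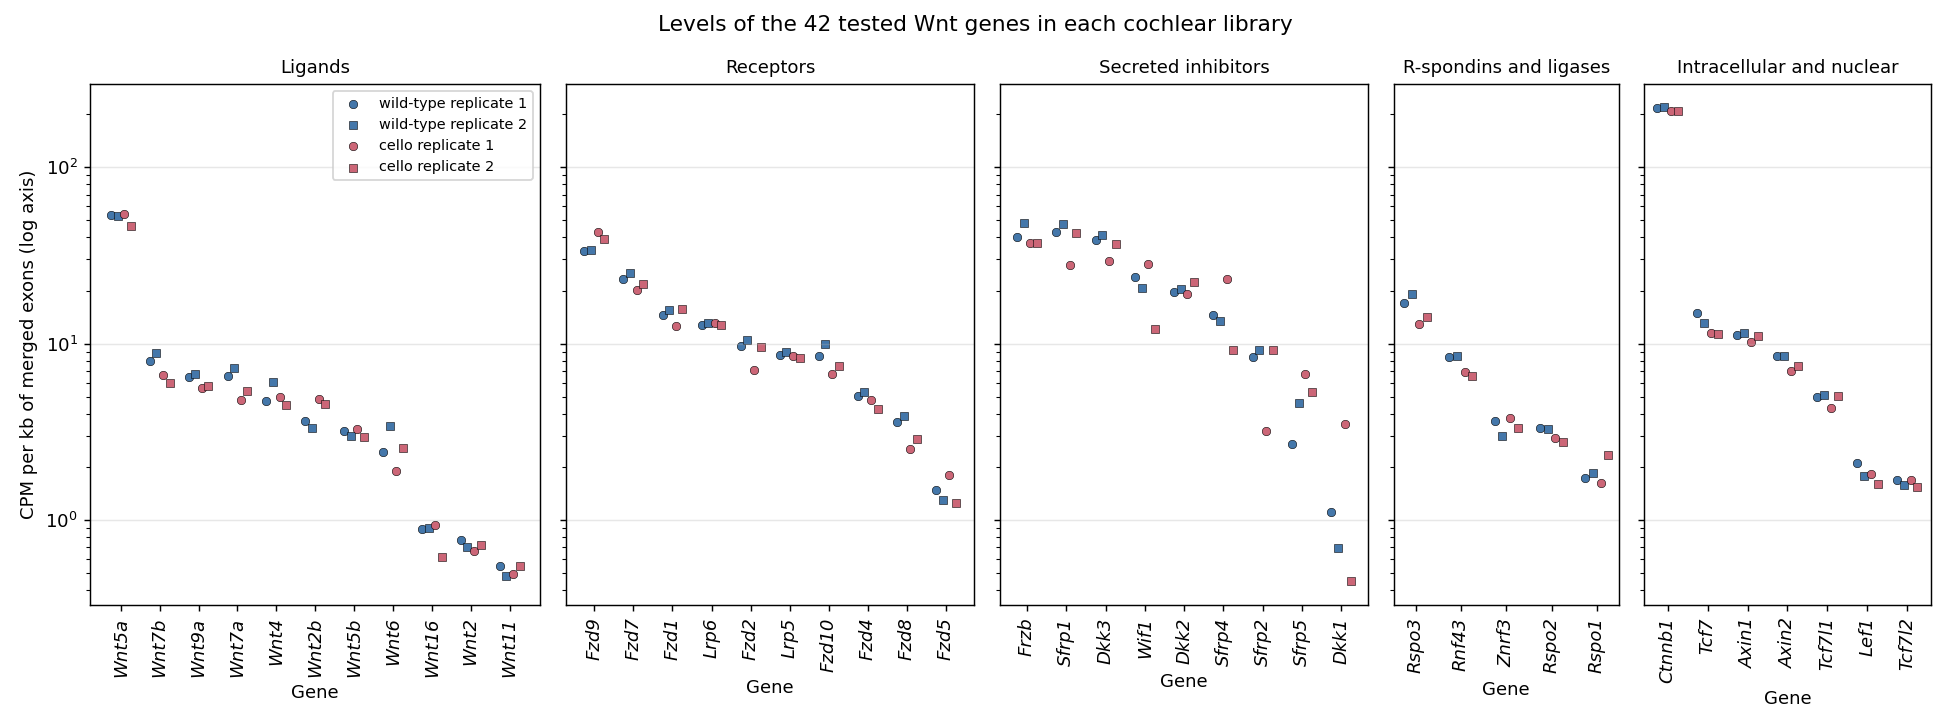
Level of each of the 42 tested members in each library, in CPM per kb of merged exons on a log axis, ordered by mean within each role (blue wild-type, red cello, circles replicate 1 and squares replicate 2). Ctnnb1 stands highest at 212.2 CPM per kb on average, Wnt5a leads the ligands, and the cello replicates part most for Dkk1.

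Among the 19 ligand genes, the closely related Wnt7a and Wnt7b were lower in both cello libraries and Wnt2b was higher. Of the 11 ligands tested, 3 had cello libraries below both wild-type libraries (Wnt7a, Wnt7b and Wnt9a), 1 had them above, and 7 overlapped. The lower share, 27.3%, was near the 28.7% of all genes, and the higher share, 9.09%, stood beside 16.9%. The median log2 fold change was -0.17. Wnt7b (ENSMUSG00000022382, chromosome 15, 85535437 to 85582473, minus strand) stood at 38.9 and 43.4 CPM in the wild-type libraries, with 32.6 and 29.4 CPM in those of cello. The genotypes did not overlap, and the cello mean was 75.3% of the wild-type mean. Its log2 fold change was -0.40 (SE 0.10, 95% interval -0.66 to -0.14, limma adjusted p = 0.421). Its exons overlap by 324 bases those of AU022754 on the other strand, which stood at 3.35 to 4.63 CPM. The deposited values hold a separate entry for ambiguous reads, at 3.4% to 3.5% of alignments. Without a known strand setting, it cannot be told how reads of the overlap were assigned. Wnt7a (ENSMUSG00000030093, chromosome 6, 91363981 to 91411363, minus strand), a ligand of the cochlear epithelium, stood at 20.7 and 23.0 CPM in the wild-type libraries, with 15.1 and 17.1 CPM in those of cello. Here too both cello libraries were the low ones, with a log2 fold change of -0.43 (SE 0.12, limma adjusted p = 0.423). The supporting cell and stria markers given above also had lower sums in cello, and their part in the result was not tested.

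Wnt2b (ENSMUSG00000027840, chromosome 3, 104945272 to 104961921, minus strand), a canonical ligand, was at 15.3 and 14.0 CPM in the wild-type libraries, with 20.4 and 19.1 CPM in those of cello. It was the single tested ligand with both cello libraries on the high side, at 134.6% of the wild-type mean. The log2 fold change was 0.42 (SE 0.11, 95% interval 0.14 to 0.69, limma adjusted p = 0.421). Both cello libraries were also the higher ones for 5 of 6 Schwann cell markers and 4 of 6 spiral ganglion neuron markers, against 16.9% of all genes, and their part in the result was not tested. The neuron markers summed to 121.7 and 384 CPM in wild-type and to 521 and 587.1 CPM in cello. Wnt5a, the main ligand of the branch that orients cells in the plane of the epithelium, stood at 420.1 and 415.7 CPM in the wild-type libraries, with 423 and 364 CPM in those of cello. Its genotypes overlapped (log2 fold change -0.09, SE 0.11, limma adjusted p = 0.777). Wnt5a alone made up 57.6% ± 1.82 of all ligand transcripts per kb in wild-type and 59.3% ± 2.25 in cello (SD, n = 2). Wnt4 was at 19.8 and 25.3 CPM in the wild-type libraries, with 20.8 and 18.9 CPM in those of cello, overlapping, with a log2 fold change of -0.17 (SE 0.15, limma adjusted p = 0.680).

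The other tested ligands were Wnt9a at 18.7 to 22.4 CPM over the 4 libraries, Wnt5b at 7.82 to 8.67, Wnt6 at 4.17 to 7.45, Wnt16 at 2.697 to 4.075, Wnt11 at 1.99 to 2.28 and Wnt2 at 1.51 to 1.75 CPM. The 8 ligands under the filter were Wnt1, Wnt3, Wnt3a, Wnt8a, Wnt8b, Wnt9b, Wnt10a and Wnt10b, which had 0 to 46 reads in a library. Wnt10b reached the most, with 1.08 CPM in cello replicate 1 against 0.253 CPM in cello replicate 2 and 0.422 and 0.380 CPM in wild-type. Wnt3 stood at 0.121 and 0.735 CPM in the wild-type libraries, with 0.353 and 0.906 CPM in those of cello. Where a gene had no read, the 3 reads that a count of 0 allows correspond to 0.0603 to 0.0712 CPM, for counting error only. With Dkk4, Rspo4 and Rspo4os these made up the 11 members not tested, of which 7 had 0 reads in at least 1 library.

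The receptors split, with Fzd8 and Fzd10 lower and Fzd9 higher in cello. Of the 8 frizzled members, which leave out Fzd3 and Fzd6, and the co-receptor genes Lrp5 and Lrp6, all 10 were tested. Of these, 6 had both cello libraries below both wild-type libraries (Fzd2, Fzd4, Fzd7, Fzd8, Fzd10 and Lrp5), 1 had them above and 3 overlapped. The 60% that were lower stood beside 28.7% of all genes, and with TMM rescaling, where the share of all genes was 22.1%, Fzd2 and Lrp5 were no longer among them. Fzd8 stood at 21.4 and 23.2 CPM in the wild-type libraries, with 15.03 and 17.32 CPM in those of cello. The genotypes were apart, at 72.5% of the wild-type mean, and the log2 fold change was -0.46 (SE 0.12, 95% interval -0.76 to -0.16, limma adjusted p = 0.421). Fzd10, whose promoter is shown above, was at 27.5 and 32.2 CPM in the wild-type libraries, with 21.9 and 24.4 CPM in those of cello. Its cello libraries were both low, with a log2 fold change of -0.36 (SE 0.12, limma adjusted p = 0.441). Fzd7, the second most abundant of the frizzled members per kb, had 104.9 and 114.6 CPM in wild-type and 91.7 and 98.4 CPM in cello, also without overlap (-0.21, SE 0.09, limma adjusted p = 0.470).

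Fzd9 (ENSMUSG00000049551, chromosome 5, 135248938 to 135251230, minus strand), a receptor known for its role in bone formation, stood at 77.3 and 77.4 CPM in the wild-type libraries, with 98.1 and 90.3 CPM in those of cello. Both cello libraries were above both wild-type libraries, at 121.8% of the wild-type mean, with a log2 fold change of 0.28 (SE 0.08, 95% interval 0.08 to 0.48, limma adjusted p = 0.425). The bone markers summed to 2445 CPM in cello replicate 1 and to 562.5 CPM in its counterpart, and their part in the Fzd9 values was not tested. The share of Fzd9 among transcripts per kb of the frizzled members, without Fzd3 and Fzd6, was 32.9% ± 1.27 in wild-type and 41.0% ± 3.46 in cello (SD, n = 2). That of Fzd7 was 23.6% ± 0.550 and 20.9% ± 0.496 (SD, n = 2). Since shares add up to a fixed total, a higher share of 1 gene lowers those of the others. The summed level of all receptor members per kb, 121.1 and 127.4 in wild-type against 120.2 and 123.3 CPM per kb in cello, overlapped between genotypes. Lrp6, a co-receptor of the canonical branch, stood at 173.9 and 178.8 CPM in the wild-type libraries, with 179.3 and 174.7 CPM in those of cello, and the 95% interval for the log2 fold change ran from -0.19 to 0.20 (limma adjusted p = 0.981). Lrp5 lay at 80.4 to 87.4 CPM, Fzd1 at 52.9 to 65.9, Fzd2 at 26.0 to 38.5, Fzd4, the receptor of norrin, at 28.8 to 35.6 and Fzd5 at 8.60 to 12.4 CPM over the 4 libraries.

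**Figure D3:**
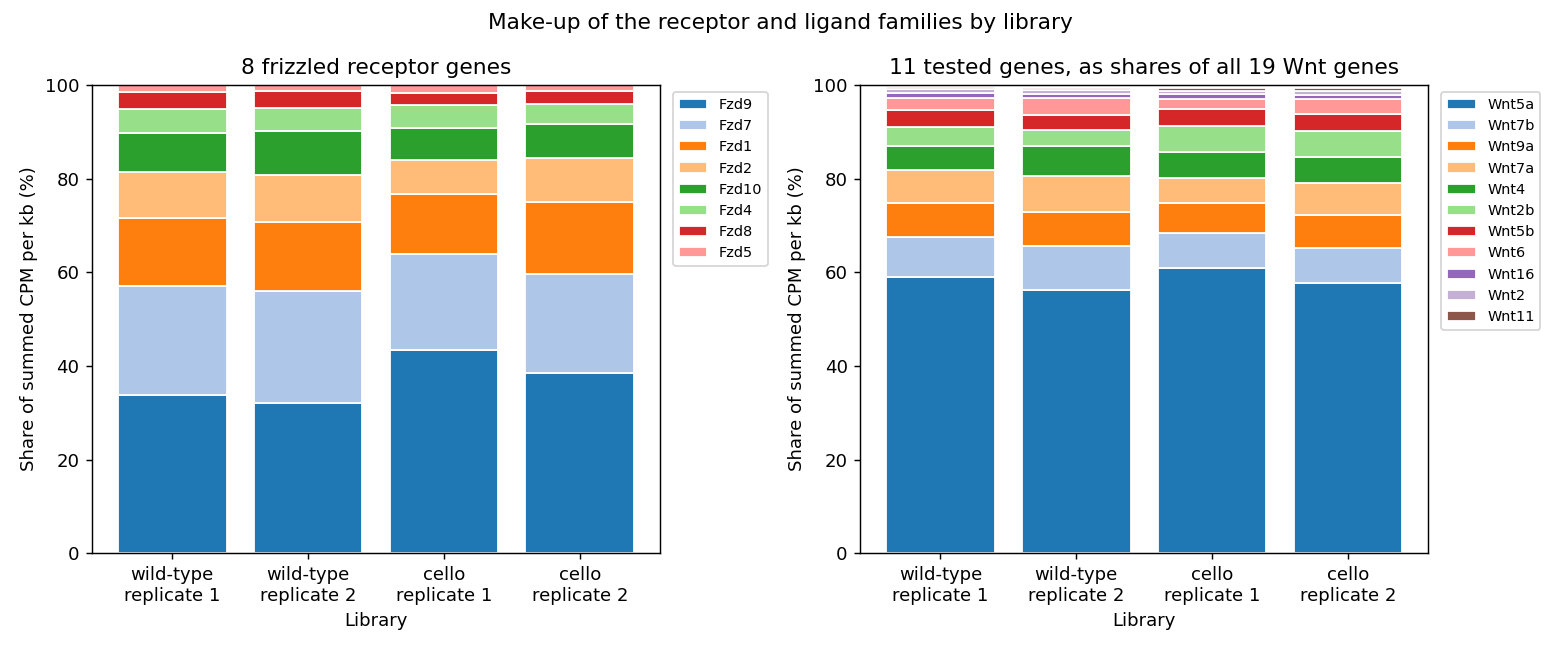
Shares of the summed CPM per kb in each library, as stacked bars in percent, for the frizzled members, without Fzd3 and Fzd6 (left), and for the tested ligands as part of all 19 Wnt genes (right). The Fzd9 segment takes 33.8% and 32.0% in the wild-type libraries and 43.4% and 38.5% in the cello libraries, and Wnt5a more than any other ligand in each library.

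The secreted inhibitors had the largest differences within a genotype. Of their 9 tested genes, 3 had both cello libraries below both wild-type libraries (Frzb, Dkk3 and Sfrp1), 1 had them above (Sfrp5) and 5 overlapped. The lower share, 33.3%, was near the 28.7% of all genes. With TMM rescaling, where the share of all genes was 22.1%, Sfrp1 was no longer among the lower ones. The Sfrp proteins and Frzb carry a frizzled-like domain that captures Wnts. Frzb stood at 130 and 156.4 CPM in the wild-type libraries, with 120.5 and 119.7 CPM in those of cello. Its wild-type libraries were further apart than the genotypes at their nearest (log2 fold change -0.25, SE 0.11, limma adjusted p = 0.485), and without wild-type replicate 2 the log2 fold change was -0.11. Sfrp1 had 186.7 and 207.2 CPM in wild-type and 122.5 and 184.8 CPM in cello. Only cello replicate 1 stood well below the rest (-0.39, SE 0.20, limma adjusted p = 0.533), and without it the log2 fold change was -0.09. Dkk3, a divergent member of the Dickkopf family, had 130.1 and 139.4 CPM in wild-type and 98.4 and 123.8 CPM in cello, again lowest in cello replicate 1 (-0.29, SE 0.13, limma adjusted p = 0.487), without which its log2 fold change was -0.12.

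Sfrp5, a less abundant family member, stood at 5.13 and 8.71 CPM in the wild-type libraries, with 12.8 and 10.1 CPM in those of cello. Both cello libraries were the higher ones, with a log2 fold change of 0.72 (SE 0.27, 95% interval 0.03 to 1.42, limma adjusted p = 0.452). Wild-type replicate 1 was the lowest library for Sfrp5, as it was for the sum of the Schwann cell markers, whose part in this difference was not tested, and without it the log2 fold change was 0.37.

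Dkk1, Sfrp4, Wif1 and Sfrp2 are named because of their spread, which was seen in the data. Dkk1, which blocks Lrp5 and Lrp6, stood at 2.72 and 1.68 CPM in wild-type, at 8.55 CPM in cello replicate 1 but at 1.10 CPM in its counterpart, replicate 2, a ratio of 7.81 between the cello libraries. Sfrp4 was at 61.1 and 56.4 CPM in the wild-type libraries, with 97.1 and 38.5 CPM in those of cello. Wif1, which binds Wnts directly, was at 58.0 and 50.5 CPM in the wild-type libraries, with 68.2 and 29.2 CPM in those of cello. In all 3 genes cello replicate 1 was the highest library and cello replicate 2 the lowest. The sum of the bone markers had the same order at these ends, though Runx2 among them was lowest in wild-type replicate 2. Sost, a Wnt antagonist made by osteocytes, had this order too, at 2.997 and 2.325 CPM in wild-type and 20.6 and 1.66 CPM in cello. So did the sums of the endothelial (172.8 and 109.4 CPM in cello), macrophage (118.5 and 105 CPM) and neutrophil and marrow markers (80.02 and 7.774 CPM). The sums of the other cell types in the marker lists did not, though single genes in those lists did. Among these was the fibrocyte marker Coch, at 326.9 and 333.8 CPM in wild-type and 1162 and 214.6 CPM in cello. Otos, Tbx18, Pou3f4 and Car3 of the same list did not have this order. The part of any of these tissues in the values was not tested. Sfrp2 went the other way, at 18.0 and 19.9 CPM in wild-type, 6.90 CPM in cello replicate 1 but 19.7 CPM in its counterpart, replicate 2. Dkk2 lay at 71.3 to 82.9 CPM over the 4 libraries, and Dkk4 had at most 0.0237 CPM. A difference of more than 1.5 times between the cello libraries was found in 6 of the 42 tested members (14.3%) and in 9.85% of all genes tested.

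**Figure D4:**
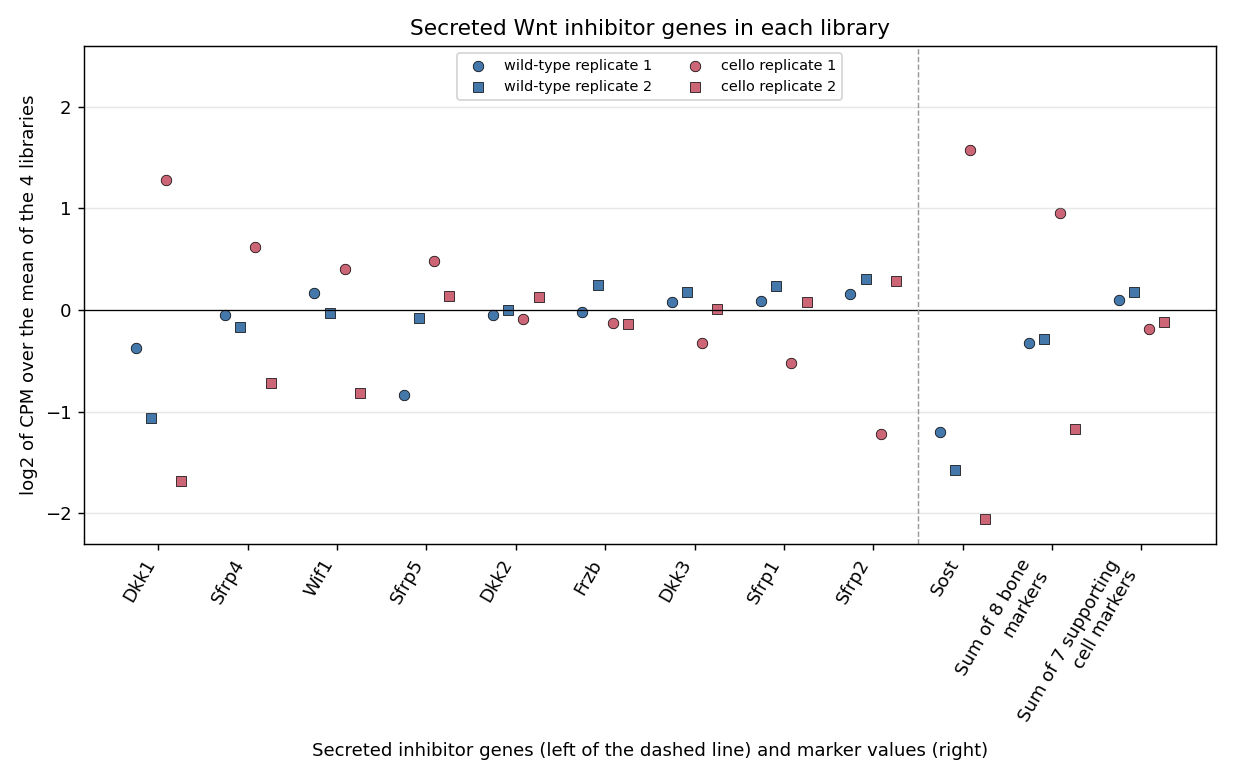
Each library's CPM over the mean of the 4 libraries, on a log2 axis, for the 9 tested secreted inhibitor genes, with Sost and the sums of the bone and supporting cell markers on the right of the dashed line (blue wild-type, red cello, circles replicate 1 and squares replicate 2). For Dkk1, Sfrp4 and Wif1 cello replicate 1 is at the top and cello replicate 2 at the bottom, as for Sost and the sum of the bone markers.

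Among R-spondins and the ligases that they counteract, 3 of 5 tested genes (Rspo2, Rspo3 and Rnf43) had both cello libraries below both wild-type libraries, beside 28.7% of all genes, while Rspo1 and Znrf3 overlapped. R-spondins strengthen Wnt signalling by clearing Rnf43 and Znrf3, 2 membrane ubiquitin ligases that remove frizzled receptors from the cell surface. Rspo3 (ENSMUSG00000019880, chromosome 10, 29452416 to 29535867, minus strand) had 52.3 and 59.3 CPM in wild-type and 40.0 and 43.6 CPM in cello. Without overlap between genotypes, its cello mean was 75.0% of the wild-type mean, a log2 fold change of -0.41 (SE 0.10, 95% interval -0.66 to -0.16, limma adjusted p = 0.419). Rnf43 (ENSMUSG00000034177, chromosome 11, 87662722 to 87735539, plus strand), also a target of the pathway that it restrains, had 55.2 and 56.1 CPM in wild-type and 45.3 and 43.2 CPM in cello. The libraries of each genotype lay close together, and the log2 fold change was -0.33 (SE 0.08, 95% interval -0.52 to -0.13, limma adjusted p = 0.419), with the smallest unadjusted p of all members (0.0074). Rspo2 had 16.98 and 16.77 CPM in wild-type and 14.98 and 14.12 CPM in cello, apart by a smaller step (-0.21, SE 0.10, limma adjusted p = 0.515). Znrf3 had 28.7 and 23.6 CPM in wild-type and 30.1 and 26.4 CPM in cello, overlapping (0.11, SE 0.13, limma adjusted p = 0.771). Whether Rnf43 and Znrf3 differ in their response was not tested. Rspo1 lay at 3.16 to 4.55 CPM, and Rspo4 and Rspo4os had at most 0.0474 and 0.0236 CPM.

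All 7 intracellular and nuclear members had fold changes below 0, as had 56.6% of all genes, and most were small. In 4 of them both cello libraries lay below both wild-type libraries (Ctnnb1, Axin1, Axin2 and Tcf7), beside 28.7% of all genes, and Axin1 overlapped with TMM rescaling. Axin2 (ENSMUSG00000000142, chromosome 11, 108920349 to 108950783, plus strand), a scaffold of the complex that degrades beta-catenin and a target gene widely read as a reporter of canonical signalling, stood at 47.0 and 47.0 CPM in the wild-type libraries, with 38.4 and 41.0 CPM in those of cello. The wild-type libraries were nearly equal and both cello libraries lower, at 84.5% of the wild-type mean, with a log2 fold change of -0.24 (SE 0.08, 95% interval -0.45 to -0.04, limma adjusted p = 0.441). Tcf7, a nuclear partner of beta-catenin, stood at 39.3 and 34.5 CPM in the wild-type libraries, with 30.3 and 29.8 CPM in those of cello. Its genotypes were apart as well (-0.29, SE 0.10, limma adjusted p = 0.441). Lef1, of the same factor family, had 18.4 and 15.7 CPM in wild-type and 16.1 and 14.0 CPM in cello. Its libraries overlapped (-0.17, SE 0.14, limma adjusted p = 0.651), and with a library left out its log2 fold change ranged from -0.28 to -0.06.

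Ctnnb1, with the highest level of all members, stood at 1123 and 1134 CPM in the wild-type libraries, with 1076 and 1075 CPM in those of cello. The genotypes did not overlap, but the difference was small, at 95.3% of the wild-type mean (log2 fold change -0.07, 95% interval -0.40 to 0.26, limma adjusted p = 0.852). Axin1, the constitutive counterpart of Axin2, had 42.9 and 44.1 CPM in wild-type and 39.1 and 42.4 CPM in cello (-0.10, SE 0.08, limma adjusted p = 0.690). Tcf7l1, mainly a repressor, lay at 16.96 to 20.07 CPM and Tcf7l2 at 13.5 to 14.9 CPM over the 4 libraries.

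Other genes of the pathway were taken from a list of 62, of which 57 were tested. Both cello libraries lay below both wild-type libraries in 22 of the 57 (38.6%), beside 28.7% of all genes. They lay above in 3 (Lgr4, Lgr5 and Porcn, 5.26%), beside 16.9%, and the median log2 fold change was -0.07. By limma 0 passed and 7 (12.3%) had an unadjusted p under 0.05, all of them lower, beside 6.47% of all genes with lower values. By role, both cello libraries were lower in 5 of 9 feedback and target genes, 2 of 7 other secreted modulators, 6 of 11 nuclear partners, 5 of 13 other receptors and co-receptors, 3 of 15 genes of the destruction complex and transducers and 1 of 2 secretion genes. Notum, a secreted enzyme that inactivates Wnts by removing their lipid and a target of the pathway, stood at 52.4 and 52.8 CPM in the wild-type libraries, with 36.25 and 34.03 CPM in those of cello. Its log2 fold change was -0.58 (SE 0.08, limma adjusted p = 0.419), with the smallest unadjusted limma p of the list (0.0007). DESeq2 gave an adjusted p of 0.0030, its single call among the members and the 57 other pathway genes, where it called 1.32% of all genes.

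Nkd1, a target gene whose product inhibits Dishevelled, had 100.6 and 108.8 CPM in wild-type and 83.1 and 83.3 CPM in cello (-0.33, SE 0.08, limma adjusted p = 0.419). Dact2, which encodes a further Dishevelled-binding protein, had 27.9 and 31.5 CPM in wild-type and 17.6 and 23.2 CPM in cello (-0.54, SE 0.16, limma adjusted p = 0.429), and its log2 fold change without cello replicate 1 was -0.34. In both genes the 2 cello libraries were the lower ones. Trabd2b, which encodes a membrane protease that cuts Wnts, had 32.0 and 30.8 CPM in wild-type and 25.6 and 26.7 CPM in cello (-0.26, SE 0.09, limma adjusted p = 0.441). Aes, a short relative of the Groucho corepressors, had 280.9 and 306 CPM in wild-type and 232.8 and 252.4 CPM in cello (-0.27, SE 0.10, limma adjusted p = 0.441). Of the other feedback and target genes tested, Ccnd1, Tnfrsf19, Dact1 and Dact3 overlapped between genotypes. The supporting cell and stria markers were lower in both cello libraries for 11 of their 13 genes, against 28.7% of all genes, and their part in these values was not tested.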

How the data were processed

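RNA of whole cochleae was prepared with a TruSeq kit, per the labels' protocols, and the submitters' processing notes name TopHat as a tool and GRCm38 as the genome build. For the counting program, its handling of strand and the gene models, the sources used here give nothing. The authors deposited CPM per gene, scaled to a total that also covers 5 summary entries without a gene. Those entries were left out of all tests, and 70.0% to 72.8% of alignments lay in genes. Every value was a whole multiple of the smallest in its file (100% of values within 0.001 of a whole number), which gave back the read counts. Symbols matched 36504 of 37239 identifiers, and positions and exon lengths come from GENCODE M21.

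The 14721 genes that reached 1 CPM in 2 or more libraries were transformed as log2(CPM + 0.5). Genotypes were compared two-sided in R 4.3.3 by limma 3.58.1, its prior variance following the mean level, and p-values were adjusted over all these genes by Benjamini-Hochberg, with a threshold of 0.05. This scale understates the change of low genes. Exact permutation of 2 against 2 libraries cannot go below p = 0.333 and was not used. The calls, the medians and the fold changes of the genes given in full were computed again with edgeR 4.0.16 and DESeq2 1.42.0 on the recovered reads, after rescaling by TMM or median of ratios, with pseudocounts of 0.1 and 1, without the filter or with a mean CPM of 5 required, with a replicate block, and without each library in turn. The counts of genes whose libraries do not overlap were repeated for the filters, the rescalings and the left-out libraries, while levels per kb, shares, ratios within a genotype and motif counts were computed 1 way.

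From each role, up to 3 members with the highest mean CPM and up to 3 with the smallest p were given in full, with Axin2 and Lef1, and from the other pathway genes 5 by p. Members and lists were chosen with earlier results of these data known. Tables and plots used Python 3.11.15, pandas 2.3.3 and matplotlib 3.10.9.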

Additional observations from a re-analysis of the deposited data

How the results depend on the processing

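With all libraries kept, the 28 genes given with a fold change kept its sign under each of 9 other settings, and Notum passed in DESeq2 (log2 fold change -0.54, adjusted p = 0.0030). With 1 library left out, 24 of the 28 kept their sign. The exceptions were close to 0, with ranges of -0.01 to 0.03 for Lrp6, -0.35 to 0.00 for Wnt4, -0.20 to 0.02 for Wnt5a and -0.03 to 0.25 for Znrf3. The count of members past the threshold was 0 throughout. Of the other pathway genes 1 passed, in DESeq2, which called 195 genes in all, and leaving out a library gave 0 to 90 calls over all genes, the 90 without wild-type replicate 2. The median log2 fold change of the members was -0.10 with no filter and -0.18 at a mean CPM of at least 5. With TMM, median-of-ratios, edgeR and DESeq2 it was -0.13, and the median over all genes moved as well, from -0.03 to 0.01. With a library left out the members' median was -0.15 to -0.12. The SD within genotypes of the members' median level per library was 0.007, from only 2 libraries per genotype. Members lower in every cello than in every wild-type library numbered 22 to 29, and higher ones 4 to 12, with a library left out, when fewer values must be apart and 39.3% to 47.9% of all genes were lower and 26.2% to 34.3% higher. Same-numbered libraries correlated at 0.133 in their deviations from the genotype means, and the labels do not tie the numbers to litters. With the replicate block the members' median was -0.17, and 0 members and 0 genes passed. With 2 libraries per genotype, differences near the spread between libraries were not detectable.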
